A study of Mus musculus with 17 samples.

Results

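Myeloid cells that the labels call TAµ, sorted from the brains of transplanted mice, were compared with the cells called µ from the brains of adult control mice, over all 13769 genes of the authors' limma table. The comparison rests on 6 of the 17 RNA sequencing libraries of the series. The 3 transplanted TAµ libraries came from BU-treated C57bl6/j mice, taken 3 months after they received GFP Lin- cells, and the 3 adult control µ libraries from C57bl6/j mice aged 5 months. Beside them stood 3 libraries of µ from the transplanted mice and 8 libraries of TAµ from mice at postnatal day 10 (P10). No label explains the names µ, TAµ and BU or tells if the cells taken for sequencing were GFP-positive. An adult control TAµ is not among the groups, so the sorted population, the treatment with transplantation and the age of the mice cannot be told apart in this comparison. The title of the series poses the question how near to microglia the brain myeloid progeny of a haematopoietic graft comes.

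Microglia, the resident macrophages of the brain, arise from yolk sac progenitors and depend on signalling through Csf1r. TGF-beta signalling and the transcription factor Sall1 help to keep them in a ramified, homeostatic state. Macrophages that reach the brain from the bone marrow share most of the general myeloid programme, but those studied in mice tend to lack Sall1 and to carry genes such as Ms4a7, Apoe and Clec12a. Macrophages at the borders of the brain, in the meninges and along vessels, carry Mrc1 and other scavenger receptors.

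The comparison, as limma returned it in the authors' deposited table, called 2296 genes higher and 1849 lower in transplanted TAµ at an adjusted p below 0.05. That is 16.7% and 13.4% of the genes tested, against which every count of a gene list below is to be read. A log2 fold change of at least 3 was reached by 1087 of the higher genes and 969 of the lower ones. The median log2 fold change over all genes was 0.09, and the median standard error was 0.72, with quartiles of 0.42 and 1.22. Fold changes below are transplanted TAµ minus adult control µ on the log2 scale unless another comparison is named. A value after ± is a standard error, worked out from the table's own fold change and p, and "higher" or "lower" always means past the threshold. The table holds no values per library, so a gene's level is given per group. Each is the approximate log2 level that the gene's average expression and fold changes imply. These levels are not scaled by gene length, so they are compared between groups and not between genes.

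**Figure D1:**
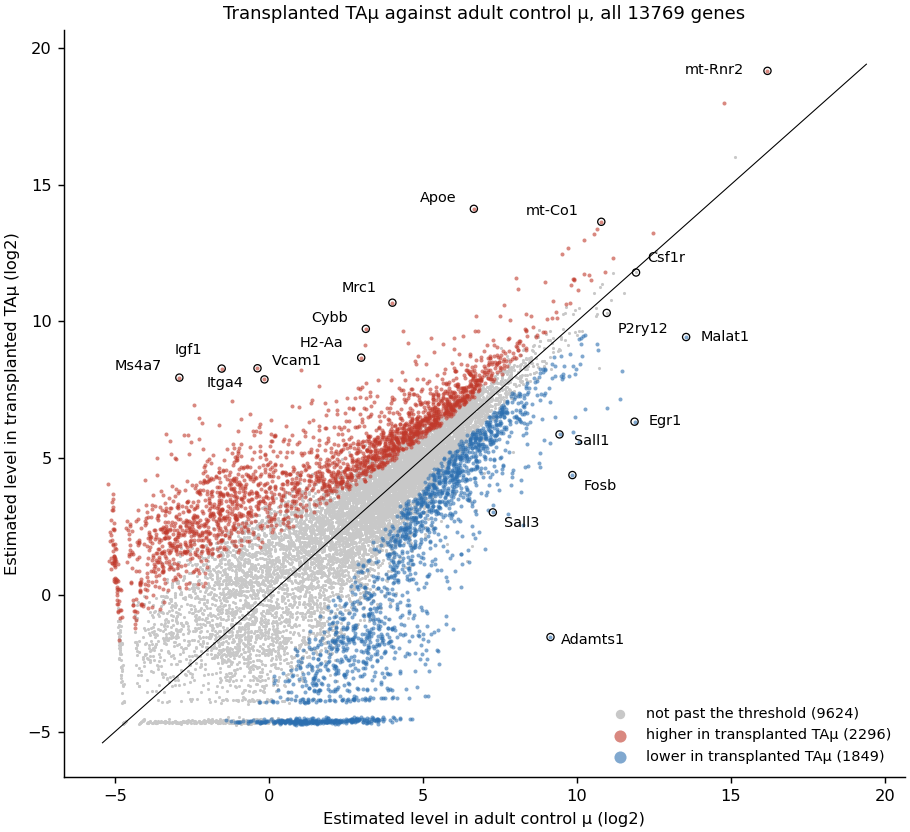
Estimated log2 level of each of 13769 genes in transplanted TAµ (vertical axis) against adult control µ (horizontal axis); red points are the 2296 higher genes, blue points the 1849 lower ones, grey points the others, and the line marks equal levels. Apoe, Mrc1, Cybb and Ms4a7 lie far above the line, Egr1, Malat1, Sall1 and Adamts1 below it, and Csf1r close to it; the band of points at the bottom holds genes at the lowest level that transplanted TAµ can take.

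Genes without reads in a group sit at a common lowest level. A set of 30 genes shared a fold change of 0.03, at levels of -4.70 to -4.60 in transplanted TAµ and -4.72 to -4.63 in adult control µ. Levels under -4.5 were therefore read as the floor. The floor held 600 genes in transplanted TAµ, 283 of them called lower, and 166 genes in adult control µ, 77 of them called higher. For such genes the size of a fold change depends on the floor, and the levels are given in its place. The genes of the mitochondrial genome made up 58.5% of the summed linear level in transplanted TAµ, 44.7% in transplanted µ, 31.8% in P10 TAµ and 16.9% in adult control µ, mostly through the mitochondrial ribosomal RNAs. When the groups were instead set to the same summed level outside the mitochondrial genome (equal-sum scaling), every fold change fell by 0.2259, with 1831 genes higher and 2297 lower, so that 44.4% of calls were higher, against 55.4% as deposited. Whether this share of mitochondrial RNA bears on any gene below beyond that shift was not tested. Xist, the RNA of the inactive X chromosome, had a fold change of 0.59 with a standard error of 6.59, and Ddx3y, on the Y chromosome, a fold change of -0.79 with a standard error of 1.70, neither of them called, and the labels give no sex. In bulk samples such as these, fewer cells of a type and less RNA per cell cannot be told apart.

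The core genes of microglia were present in transplanted TAµ, while a subset that includes the Sall factors was much lower. Of the 38 homeostatic microglia genes, 15 were lower, 2 were higher and 21 were not called, with a median of -0.56, and 20 were lower and 1 higher under the equal-sum scaling. Csf1r, the receptor for the growth factors that keep microglia alive, had a level of 11.79 in transplanted TAµ and 11.92 in adult control µ, a difference of -0.13 ± 0.19 (limma adjusted p = 0.614). The fractalkine receptor gene Cx3cr1 had 10.79 in transplanted TAµ and 11.12 in adult control µ, and the purinergic receptor gene P2ry12 10.31 in transplanted TAµ and 10.97 in adult control µ. Neither was called, with limma adjusted p of 0.296 and 0.115, although P2ry12 passed as lower under the equal-sum scaling (adjusted p = 0.0394).

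Sall1, a zinc finger factor needed for microglial identity (chr8:89027242-89044162, GRCm38.p6), had a level of 5.87 in transplanted TAµ and 9.44 in adult control µ. That is an 11.9-fold lower level, with a difference of -3.57 ± 0.35 and a limma adjusted p of 5.51e-06. Sall3, a related factor, fell to 3.02 in transplanted TAµ, against 7.27 in adult control µ. The fructose transporter gene Slc2a5 was at 4.60 and 7.56 in these groups, and the adenosine receptor gene Adora3 at 2.70 and 6.02. All 4 genes were lower in transplanted TAµ, with differences of -4.25 to -2.96. Rhob, a small GTPase gene that is also an early stress gene, was lower, differing by -3.47 ± 0.40. Smaller falls were seen in Mertk, a receptor for the uptake of dying cells (-1.74 ± 0.22), Siglech, a sialic acid-binding lectin gene (-1.60 ± 0.32), Bin1 (-1.09 ± 0.27) and Tmem119 (-0.94 ± 0.31, limma adjusted p = 0.0295). The 2 higher genes were Gas6, a ligand of Mertk and Axl, by 1.88 ± 0.24, and the Fc receptor-like gene Fcrls, by 0.98 ± 0.31, the second of which missed the threshold under the equal-sum scaling (adjusted p = 0.0719).

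Transplanted µ lay closer to adult control µ in the Sall genes. Sall1 was at 9.18 and Sall3 at 6.54 there, which is -0.26 and -0.73 from adult control µ (limma adjusted p = 0.441 and 0.0499). Transplanted TAµ differed from transplanted µ by -3.31 ± 0.36 for Sall1 and -3.52 ± 0.62 for Sall3 (limma adjusted p = 5.97e-05 and 0.00249). Over the table as a whole, transplanted TAµ differed from transplanted µ in 490 higher genes (3.56%) and 404 lower ones (2.93%). Of the 38 homeostatic genes, 22 were lower and 0 higher in transplanted TAµ than in transplanted µ. Transplanted µ was itself higher than adult control µ in 14 of the 38 and lower in 3, with a median of 0.48, against 11.3% higher and 10.5% lower over the table. P2ry12 was among the 14, at 12.03 in transplanted µ and 10.97 in adult control µ. This comparison and the one with adult control µ share the transplanted TAµ libraries.

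**Figure D2:**
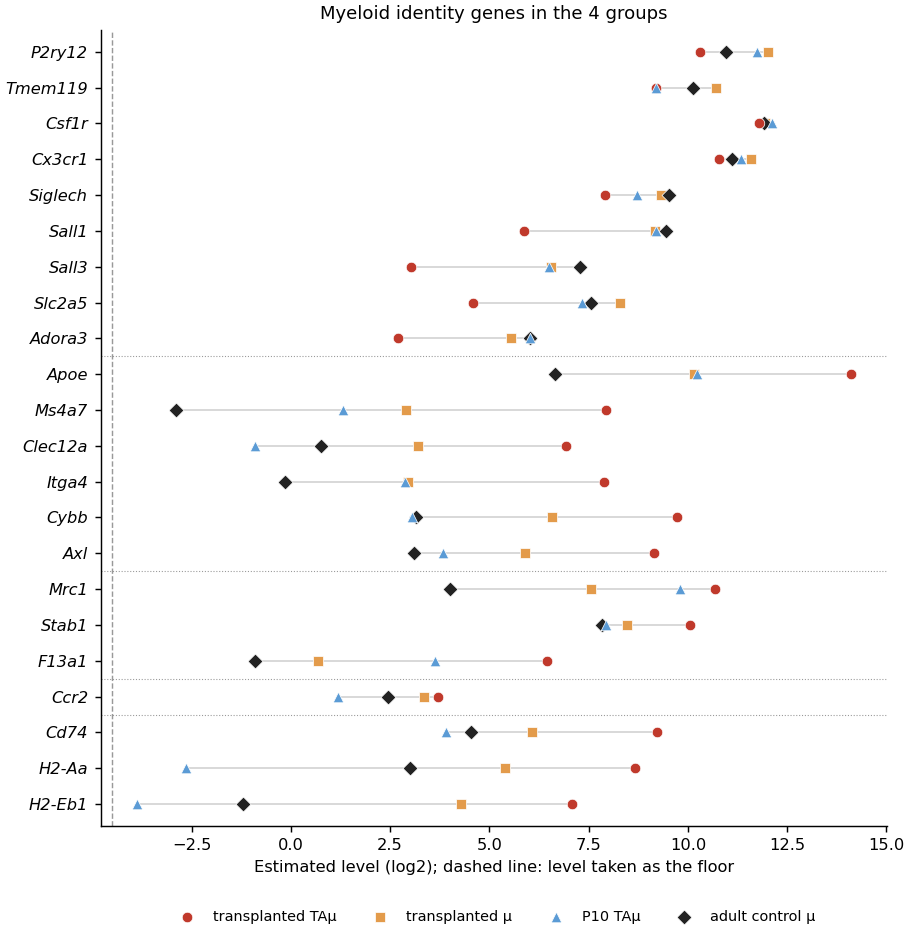
Estimated log2 level of 22 myeloid genes in transplanted TAµ (red circles), transplanted µ (orange squares), P10 TAµ (blue triangles) and adult control µ (black diamonds); dotted lines part homeostatic, marrow-derived, border-associated, monocyte and MHC class II genes. P2ry12, Csf1r and Cx3cr1 lie within 2 log2 units over the 4 groups, Sall1 and Sall3 are lowest in transplanted TAµ, and Apoe, Ms4a7, Mrc1 and the class II genes are highest there.

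Transcription factors of myeloid identity moved less uniformly as a list. Of 30 measured, with Sall1 and Sall3 among them, 4 were higher and 10 lower, with a median of -0.45. Runx3, a Runt family factor, was at 4.99 in transplanted TAµ and -3.04 in adult control µ (8.04 ± 0.95), and was also higher than in transplanted µ, by 4.82 ± 0.78. Nfib was higher by 5.77 ± 1.18, Tfec, of the MiT family, by 5.15 ± 1.44, and Maf by 1.14 ± 0.19. Lower beside the Sall genes was the zinc finger factor gene Klf4, at 3.26 in transplanted TAµ and 6.58 in adult control µ (-3.32 ± 0.66, limma adjusted p = 0.00128). Irf8, a factor for monocytes and microglia, was lower as well, differing by -0.78 ± 0.23. Mef2c was not called, at 9.27 in transplanted TAµ and 8.82 in adult control µ. Unlike the Sall genes, Klf4 was also low in transplanted µ, at 2.90, which is -3.68 from adult control µ (limma adjusted p = 0.000511). Transplanted TAµ minus transplanted µ was 0.36 ± 0.82 for Klf4, 0.48 ± 0.58 for Nfib and 0.14 ± 0.19 for Maf. None of these 3 was called (limma adjusted p = 0.835, 0.671 and 0.705).

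Genes that mark marrow-derived macrophages of the brain were higher in transplanted TAµ in nearly all cases. Of 24 measured, 21 were higher and 0 lower, with a median of 5.50. Ms4a7, a membrane gene of the Ms4a family (chr19:11321039-11336146), had a level of 7.95 in transplanted TAµ and -2.90 in adult control µ, a difference of 10.85 ± 1.19 with a limma adjusted p of 1.3e-05. Apoe, the apolipoprotein that carries cholesterol between brain cells (chr7:19696244-19701310), had 14.11 and 6.66, a 176-fold higher level (7.46 ± 0.53, limma adjusted p = 5e-07). The integrin alpha 4 gene Itga4, used by leukocytes to enter tissue, was higher by 8.02 ± 1.31, the inhibitory lectin gene Clec12a by 6.16 ± 0.97 and the chemokine gene Pf4 by 5.70 ± 1.01. The NADase gene Cd38 was at 5.88 in transplanted TAµ and -3.34 in adult control µ. Lyz2, which encodes lysozyme and is expressed by most macrophages, was higher by 2.97 ± 0.26, a 7.84-fold difference. Not called were Hpgd (8.00 and 7.87 in transplanted TAµ and adult control µ), Ms4a6d (5.56 and 5.30) and Mr1.

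In transplanted µ 11 of the 24 were higher than in adult control µ, where the background was 11.3% higher and 10.5% lower, with a list median of 2.21. Set directly against transplanted µ, transplanted TAµ had 18 of the 24 higher and 0 lower. Ms4a7 exceeded its level in transplanted µ by 5.03 ± 0.50, Apoe by 3.97 ± 0.45, Itga4 by 4.93 ± 0.61 and Clec12a by 3.71 ± 0.50 (limma adjusted p = 5.69e-05, 7.33e-05, 0.00012 and 0.00029).

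Markers of border-associated macrophages were also higher, in 13 of 19 measured genes with 0 lower and a median of 4.08. The mannose receptor gene Mrc1 was at 10.68 in transplanted TAµ and 4.01 in adult control µ (6.67 ± 0.59, limma adjusted p = 2.7e-06), and the scavenger receptor gene Stab1 at 10.05 and 7.84. The scavenger receptor gene Cd36 was higher by 7.74 ± 0.91, Siglec1 by 6.93 ± 0.97 and the transglutaminase gene F13a1 by 7.34 ± 1.17. The hyaluronan receptor gene Lyve1 was at 3.70 and -1.34 in transplanted TAµ and adult control µ (limma adjusted p = 0.0234). Cd163, a haemoglobin scavenger receptor gene, was at 4.07 and 1.53, and Folr2, a folate receptor gene, at 1.78 and 0.15, neither of them called. In P10 TAµ 12 of the 19 were also higher than in adult control µ and 0 lower, with a median of 3.78. The background there was 23.2% higher and 12.5% lower. Set directly against P10 TAµ, transplanted TAµ had 8 of the 19 higher and 2 lower, against 10.5% and 15.3% of all genes. In P10 TAµ Mrc1 was at 9.81 and Lyve1 at 4.62.

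Of 13 measured monocyte genes, by contrast, 2 were higher and 1 was lower, with a median of 1.96. Ccr2, the receptor that brings monocytes out of the marrow, had a level of 3.72 in transplanted TAµ and 2.46 in adult control µ (1.26 ± 0.62, limma adjusted p = 0.131). Plac8 was at -1.50 in transplanted TAµ and under the floor, at -4.86, in adult control µ, and was not called. Higher were the integrin gene Itgal, by 3.76 ± 0.87, and the chemokine receptor gene Ccr1, by 3.34 ± 0.86. Lower was Nr4a1, an orphan nuclear receptor gene that is also an early response gene, by -2.78 ± 0.95.

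The genes that present antigen on MHC class II molecules were higher in transplanted TAµ. Of 10 measured, 6 were higher and 0 lower, with a median of 1.41, and 5 were higher and 1 lower under the equal-sum scaling. Transcription of class II genes depends on a promoter module that ends in a Y box, an inverted CCAAT box bound by NF-Y, and on the coactivator Ciita. The promoters of 3 of the higher genes are shown because the class II heterodimer genes and the H2-DM loading genes carry this module. Each is the 300 bases from 250 before to 50 after the start of the gene, from RefSeq on GRCm38.p6, written in the direction of transcription. Capitals mark ATTGG, the core of the Y box, or CCAAT, the same letters on the other strand. The windows are chr17:34287774-34288073 on the minus strand for H2-Aa, chr17:34305617-34305916 on the plus strand for H2-Eb1 and chr17:34152941-34153240 on the plus strand for H2-DMb1.
H2-Aa: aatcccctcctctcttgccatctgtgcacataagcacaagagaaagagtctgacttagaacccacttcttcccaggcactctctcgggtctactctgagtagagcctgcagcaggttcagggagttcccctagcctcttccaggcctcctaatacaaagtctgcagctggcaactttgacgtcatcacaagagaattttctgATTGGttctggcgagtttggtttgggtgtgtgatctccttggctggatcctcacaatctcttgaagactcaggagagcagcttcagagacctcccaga
H2-Eb1: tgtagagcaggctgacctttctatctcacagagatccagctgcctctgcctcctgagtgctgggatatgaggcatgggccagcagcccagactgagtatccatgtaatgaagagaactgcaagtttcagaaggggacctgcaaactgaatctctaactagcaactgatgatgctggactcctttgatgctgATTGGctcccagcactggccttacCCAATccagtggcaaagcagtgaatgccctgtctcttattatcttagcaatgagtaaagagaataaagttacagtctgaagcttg
H2-DMb1: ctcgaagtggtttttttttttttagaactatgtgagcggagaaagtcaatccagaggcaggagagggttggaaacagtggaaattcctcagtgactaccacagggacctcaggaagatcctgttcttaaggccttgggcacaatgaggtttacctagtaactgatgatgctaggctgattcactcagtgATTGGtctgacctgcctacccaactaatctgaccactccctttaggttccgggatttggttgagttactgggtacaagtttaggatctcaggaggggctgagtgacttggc

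ATTGG on either strand was found in 37.4% of the 32851 promoter windows of this length in the RefSeq table, so these 5 letters alone are common. They were found in 7 of the 8 class II genes with a window, and in 4 of the 4 among these that were higher. A match is a description of the letters and not of binding.

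H2-Aa, the alpha chain of the I-A molecule, had a level of 8.67 in transplanted TAµ and 3.00 in adult control µ, a 51.1-fold higher level (5.67 ± 0.87, limma adjusted p = 0.000207). Its partner H2-Ab1 was higher by 4.33 ± 0.68, and H2-Eb1, the beta chain of I-E, was at 7.09 and -1.19 in transplanted TAµ and adult control µ. Cd74, the invariant chain that guards the peptide groove, was at 9.23 and 4.53 (4.69 ± 0.46, limma adjusted p = 5.51e-06). The loading genes H2-DMa and H2-DMb1 were higher by 1.71 ± 0.32 and 1.12 ± 0.41. The genes of the H2-O molecule, which restrains loading, were not called, with H2-Oa at 1.11 in transplanted TAµ and 3.06 in adult control µ. H2-Aa, H2-Ab1, H2-Eb1 and Cd74 also exceeded their levels in transplanted µ, by 2.80 to 3.27 (limma adjusted p between 7.58e-05 and 0.00266), while H2-DMb1 differed from transplanted µ by 0.04. In P10 TAµ, H2-Aa was at -2.64 and H2-Eb1 at -3.89.

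Of 19 MHC class I genes, whose products present peptides from within the cell, 4 were higher and 0 lower, with a median of 0.55. B2m, the common light chain, was higher by 1.64 ± 0.32, H2-D1 by 1.83 ± 0.40 and H2-K1 by 1.40 ± 0.37. Reads of class I genes can be shared between near-identical copies, as can those of the alpha globin and ribosomal protein genes below, and how the authors counted such reads is not given in the sources used here.

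Of 30 measured interferon response genes, 8 were higher and 1 lower, with a median of 0.51. Bst2, a tether of enveloped viruses, was at 6.85 in transplanted TAµ and 2.72 in adult control µ (4.13 ± 0.64, limma adjusted p = 0.000217). The antiviral genes Ifit1 and Ifitm3 were higher by 5.36 ± 0.97 and 5.34 ± 1.03, and the ubiquitin-like modifier gene Isg15 by 4.65 ± 0.95. Mx2, a transcribed pseudogene in the GRCm38.p6 annotation, was lower, at -2.54 in transplanted TAµ and 2.63 in adult control µ. Irf7, a factor that drives interferon genes, was at -0.44 in transplanted TAµ and 0.75 in adult control µ and was not called. The promoters of Ifit1 and Isg15 are shown because they hold the motif that interferon-activated factors bind. The windows, made in the same way, are chr19:34640639-34640938 on the plus strand and chr4:156200769-156201068 on the minus strand, and capitals mark GAAA, any 2 bases and GAAA again, on either strand, where neighbouring matches can overlap.
Ifit1: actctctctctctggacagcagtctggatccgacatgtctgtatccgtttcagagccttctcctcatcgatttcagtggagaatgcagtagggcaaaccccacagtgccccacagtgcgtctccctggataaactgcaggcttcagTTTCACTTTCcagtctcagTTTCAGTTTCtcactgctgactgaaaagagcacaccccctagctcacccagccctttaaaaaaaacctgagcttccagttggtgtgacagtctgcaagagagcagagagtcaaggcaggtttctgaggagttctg
Isg15: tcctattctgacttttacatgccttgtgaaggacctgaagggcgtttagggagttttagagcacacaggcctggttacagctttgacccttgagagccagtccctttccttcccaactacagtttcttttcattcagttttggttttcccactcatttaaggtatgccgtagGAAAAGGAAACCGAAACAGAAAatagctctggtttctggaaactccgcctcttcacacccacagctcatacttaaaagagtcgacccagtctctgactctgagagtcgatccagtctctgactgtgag

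This motif was found in 3.44% of all promoter windows. It was found in 16 of the 23 interferon response genes with a window and in 6 of the 7 among these that were higher. The list was drawn up from known interferon targets, so the frequency of the motif in it is no result of this comparison.

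Other receptors and effectors of innate immunity moved in both directions. Of 16 measured complement genes 5 were higher and 1 lower, with a median of 0.62. C3, the central component, was at 4.30 in transplanted TAµ and -0.44 in adult control µ (4.74 ± 1.22), and C4b was higher by 3.63 ± 0.79. The membrane inhibitor gene Cd59a was at 1.14 in transplanted TAµ and under the floor in adult control µ, where its level was -4.89. C1qa, a chain of the recognition molecule C1q that microglia make in large amounts, was at 10.29 and 9.60 and was not called. C5ar2 was lower, differing by -1.18 ± 0.34. Among the 7 Fc gamma receptor genes and their signalling partners, 0 were higher and 1 was lower, the kinase gene Syk, by -0.79 ± 0.20. Of the 6 subunits of the phagocyte NADPH oxidase, which makes superoxide, Cybb, the catalytic subunit, rose to 9.73 in transplanted TAµ, against 3.15 in adult control µ (6.58 ± 0.68, limma adjusted p = 7.93e-06). Its cytosolic partner Ncf1 was lower, differing by -0.64 ± 0.20, and the other 4 were not called.

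Of 22 Toll-like receptor and adaptor genes 3 were higher and 6 lower, with a median of -0.38. Tlr8 was at 5.85 in transplanted TAµ and -2.62 in adult control µ (8.47 ± 0.97, limma adjusted p = 1.69e-05), and Tlr2, a sensor of bacterial lipoproteins, was higher by 1.45 ± 0.31. The RNA sensors Tlr7 and Tlr3 were lower, differing by -1.41 ± 0.28 and -1.09 ± 0.28, and the lipopolysaccharide co-receptor gene Cd14 by -1.78 ± 0.50. Tlr4 was at 6.52 and 6.73 in transplanted TAµ and adult control µ and was not called. Of 13 C-type lectin receptor genes 4 were higher and 2 lower, with a median of 2.53. Clec4n, which recognises fungal mannans, was at 4.22 in transplanted TAµ and -4.01 in adult control µ. Mrc2, the collagen receptor that is a relative of Mrc1, went the other way, at 4.20 and 8.20 (limma adjusted p = 9.05e-05).

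**Figure D3:**
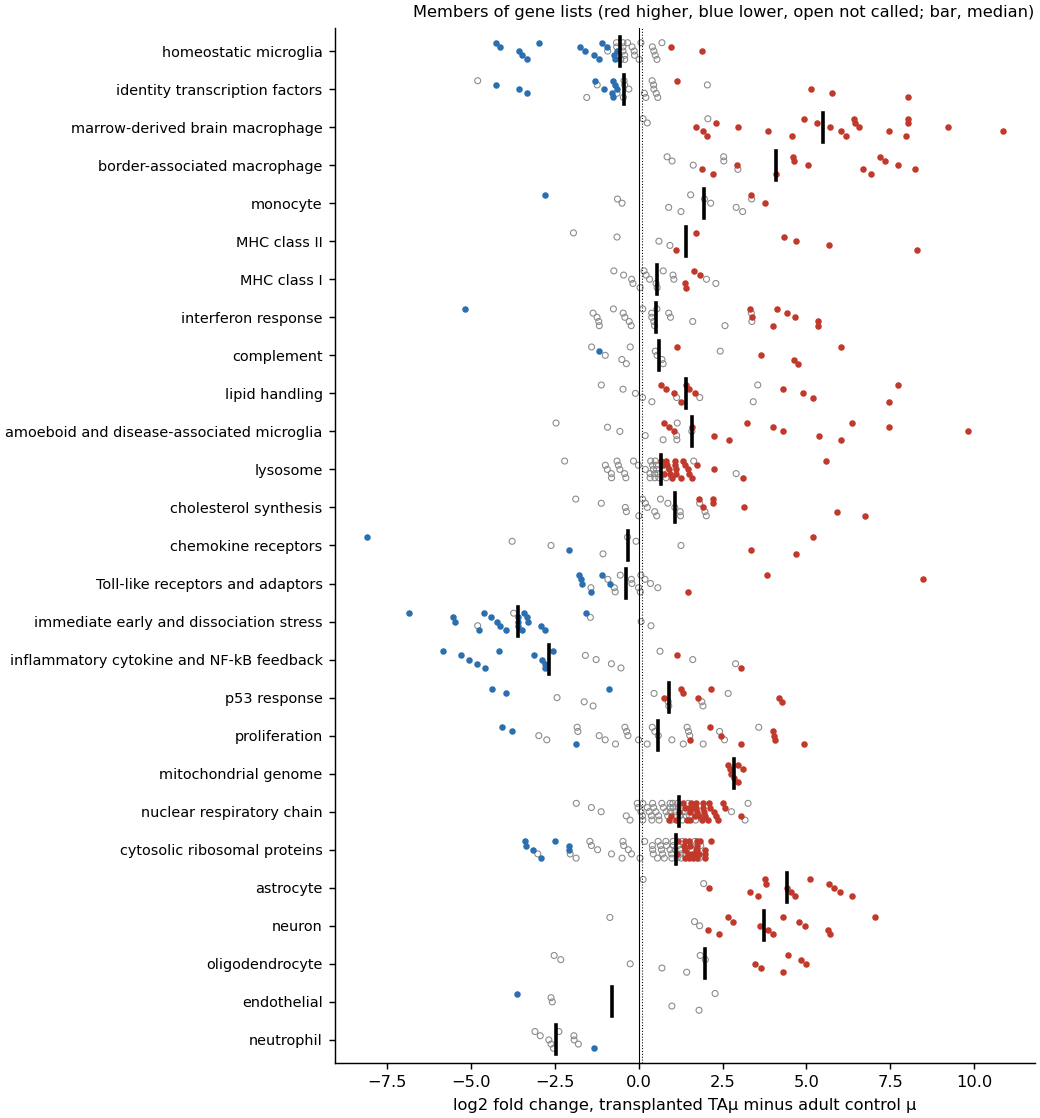
Log2 fold change, transplanted TAµ minus adult control µ, of each measured member of the gene lists named on the vertical axis. Red points are higher genes, blue points lower genes, open points genes that were not called, and bars are medians, with the dotted line at the median of all genes, 0.09. Members of the marrow-derived list lie to the right with a median of 5.50 and those of the immediate early list to the left with a median of -3.59.

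Genes that handle lipids and the lysosome were higher in a wide set. Of 21 measured lipid handling genes 12 were higher and 0 lower, with a median of 1.41. Equal-sum scaling left 9 of them higher and 0 lower. Beside Apoe and Cd36, the scavenger receptor gene Msr1 was at 7.02 in transplanted TAµ and 1.83 in adult control µ (5.19 ± 0.81), and the phospholipid transfer gene Pltp was higher by 4.90 ± 1.17. The cholesterol exporters Abca1 and Abcg1 rose by 1.69 ± 0.21 and 1.41 ± 0.21, and Soat1, which stores cholesterol as esters, by 1.51 ± 0.28. Trem2, a lipid-sensing receptor gene, was not called, at 8.97 in transplanted TAµ and 9.44 in adult control µ. Of the 25 measured cholesterol and fatty acid synthesis genes 7 were higher and 0 lower, with a median of 1.08. Scd2, a desaturase, was higher by 3.14 ± 0.37, Fasn by 2.23 ± 0.49 and Hmgcs1 by 1.93 ± 0.35.

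Of 23 genes of amoeboid and disease-associated microglia 14 were higher and 0 lower, with a median of 1.58. Equal-sum scaling left 12 of them higher and 1 lower. The growth factor gene Igf1 was at 8.28 in transplanted TAµ and -1.53 in adult control µ (9.80 ± 1.35, limma adjusted p = 8.61e-05), and the receptor kinase gene Axl at 9.15 and 3.11 (6.04 ± 0.61, limma adjusted p = 6.57e-06). The glycoprotein gene Gpnmb was higher by 6.35 ± 1.03, the galectin gene Lgals1 by 5.37 ± 1.04 and the cystatin gene Cst7 by 4.01 ± 1.07. Spp1, which encodes osteopontin, was at 2.34 and 2.14, and Clec7a, the beta-glucan receptor gene, at 4.99 and 3.40 in transplanted TAµ and adult control µ, and neither was called. In P10 TAµ 18 of the 23 were higher than in adult control µ and 0 lower, with a median of 1.87. The background there was 23.2% higher and 12.5% lower. In transplanted µ 9 were higher and 0 lower than in adult control µ, against 11.3% and 10.5% of all genes. Set directly against P10 TAµ, transplanted TAµ had 6 higher and 7 lower, against 10.5% and 15.3%. P10 TAµ had an Spp1 level of 8.70 and an Igf1 level of 7.08. Of 51 measured lysosome genes 22 were higher and 0 lower, with a median of 0.66 over all 51, and 15 were higher and 3 lower under the equal-sum scaling. The protease genes Ctsb and Ctse were higher by 1.58 ± 0.24 and 5.59 ± 1.10, Lamp1 by 1.51 ± 0.25, and Galc, which degrades galactolipids of myelin, by 3.10 ± 0.31. The lysosome rise was as wide in transplanted µ, with 27 of the 51 higher than adult control µ, 1 lower and a median of 0.80. Over all genes 11.3% were higher and 10.5% lower there. Transplanted TAµ had 4 lysosome genes higher and 2 lower than transplanted µ, against 3.56% and 2.93% of all genes.

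Of 20 measured integrin and adhesion genes 6 were higher and 3 lower. The list median was 0.06 as deposited and turned to -0.17 under the equal-sum scaling. Vcam1, the ligand of the integrin that Itga4 forms, was at 8.29 in transplanted TAµ and -0.37 in adult control µ (8.66 ± 1.32, limma adjusted p = 0.000191). Itgb8, whose product releases active TGF-beta, was higher by 5.00 ± 0.96. Selplg, the P-selectin ligand gene, was lower, differing by -1.71 ± 0.35 and Itgb3 by -2.12 ± 0.76. Of 11 chemokine receptor genes 3 were higher and 2 lower, with a median of -0.33. Cxcr4, which holds blood cells in the marrow, was at 5.69 in transplanted TAµ and 0.50 in adult control µ (5.20 ± 0.83), and Cxcr3 was higher by 4.67 ± 1.08. Ccr9 was under the floor in transplanted TAµ, at -4.55, against 3.54 in adult control µ.

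Of the 23 measured genes of the TGF-beta pathway 4 were higher and 5 lower. These are 17.4% and 21.7%, not far from the 16.7% and 13.4% of all genes. The list median of 0.08 turned to -0.15 under the equal-sum scaling, with 2 higher and 6 lower. The receptor gene Tgfbr1 was close to its control level, with a difference of -0.12, while the receptor gene Tgfbr2 was higher by 0.69 ± 0.23 (limma adjusted p = 0.0294). Smad3, which carries the signal, was lower, differing by -0.76 ± 0.24, the inhibitor Smad7 by -2.38 ± 0.71, the co-receptor gene Eng by -2.08 ± 0.38 and the type I receptor gene Acvr1 by -2.16 ± 0.44. Ltbp3, which binds latent TGF-beta, was higher by 4.34 ± 1.10. Of 24 measured extracellular matrix genes 8 were higher and 1 lower, with a median of 1.37. The proteoglycan genes Bcan and Ncan, which astrocytes and neurons are known to make, were higher by 6.31 ± 1.03 and 3.27 ± 0.51, and the inhibitor gene Timp2 by 2.70 ± 0.27. The protease gene Adamts1 (chr16:85793827-85803113) was at -1.54 in transplanted TAµ and 9.14 in adult control µ (-10.68 ± 2.20, limma adjusted p = 0.00165).

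Immediate early genes, which are transcribed within minutes of a stimulus and are also induced when tissue is dissociated, were lower in transplanted TAµ. Of 24 measured, 19 were lower and 0 higher, with a median of -3.59. Egr1 was at 6.33 in transplanted TAµ and 11.87 in adult control µ (-5.54 ± 0.42, limma adjusted p = 6.9e-07), Jun at 7.16 and 11.39, Fos at 6.52 and 9.93, Fosb at 4.38 and 9.86, and the phosphatase gene Dusp1 at 6.83 and 10.97. Ier3 and Fosl2 were not called. Of 20 measured inflammatory cytokine and NF-kB feedback genes 11 were lower and 2 higher, with a median of -2.67. The NF-kB inhibitor gene Tnfaip3 was lower, differing by -2.87 ± 0.47, the cytokine genes Il1a by -2.78 ± 0.59, Tnf by -4.58 ± 1.46 and Il6 by -4.83 ± 1.18, and the chemokine genes Ccl3 by -3.13 ± 0.71 and Ccl4 by -5.30 ± 1.36. Cxcl16, a membrane-bound chemokine gene, was higher by 3.06 ± 0.27.

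Transplanted µ had 20 of the 24 early genes lower than adult control µ and 0 higher, with a median of -3.27. The background of that comparison was 10.5% lower and 11.3% higher. Transplanted TAµ differed from transplanted µ in 1 of the 24, Rhob, which was lower, and the list median was -0.25. Calls between these fractions were rare in the whole table, at 2.93% lower and 3.56% higher. The single call therefore does not set the early genes apart from other genes. Egr1 was at 7.27 in transplanted µ, and transplanted TAµ minus transplanted µ gave -0.94 ± 0.46 (limma adjusted p = 0.237). In P10 TAµ Egr1 was at 10.97 and Fos at 9.64. Of the 20 inflammatory cytokine and NF-kB feedback genes, 1 was higher and 7 lower in transplanted µ than in adult control µ. Their median was -1.89, and over all genes 11.3% were higher and 10.5% lower there. Transplanted TAµ had 2 of the 20 higher and 0 lower than transplanted µ, against 3.56% and 2.93% of all genes.

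RNAs kept in the nucleus and genes of energy metabolism also differed between transplanted TAµ and adult control µ. The nuclear long noncoding RNAs Malat1 and Neat1 were at 9.43 and 3.76 in transplanted TAµ and at 13.55 and 8.18 in adult control µ, and 5 of 8 measured genes of that list were lower and 1 higher, the neuronal RNA Meg3. Each of the 7 measured protein-coding genes of the mitochondrial genome was higher, by 2.65 to 3.11, with mt-Co1 at 13.64 in transplanted TAµ and 10.79 in adult control µ (2.85 ± 0.39, limma adjusted p = 7.51e-05). Of 76 nuclear genes of the respiratory chain 31 were higher and 0 lower, with a median of 1.21, among them Cox6a1 (2.23 ± 0.34) and Cox8a (2.37 ± 0.40). Under the equal-sum scaling 20 were higher and 1 lower. Of 76 cytosolic ribosomal protein genes 24 were higher and 7 lower, with a median of 1.11, and Rps14 was higher by 2.15 ± 0.52. Equal-sum scaling left 15 of them higher and 9 lower. Of 22 glycolysis genes 7 were higher and 1 lower, with a median of 0.84, and 5 were higher and 3 lower under the equal-sum scaling. Aldoa was higher by 1.05 ± 0.23 and Ldha by 1.36 ± 0.41, and Pfkfb3, which speeds glycolysis, was lower, differing by -1.45 ± 0.26. Transplanted µ also had all 7 mitochondrial genes higher than adult control µ, against 11.3% of all genes. Malat1 and Neat1 differed there by -3.77 and -5.20. Between transplanted TAµ and transplanted µ, 0 members of the nuclear RNA, mitochondrial genome and nuclear respiratory chain lists were called. Of the ribosomal protein genes 1 was higher and of the glycolysis genes 1 was lower, against 3.56% and 2.93% of all genes. Against adult control µ, the ribosomal list had a median of 0.51 in transplanted µ and 1.07 in P10 TAµ. The respiratory chain list had medians of 0.88 and 1.07 in the same order. Whether the mitochondrial share given above bears on these lists was not tested.

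The p53 response and the cell cycle showed no common direction. Of 19 measured p53 target genes 7 were higher and 3 lower, with a median of 0.90, and 5 were higher and 4 lower under the equal-sum scaling. Cdkn1a, the cell cycle inhibitor p21, was at 5.42 in transplanted TAµ and 4.52 in adult control µ (0.90 ± 0.64, limma adjusted p = 0.307), whereas transplanted µ stood at 8.36, and transplanted TAµ minus transplanted µ was -2.94 ± 0.52 (limma adjusted p = 0.0026). Ccng1 was higher in transplanted TAµ than in adult control µ by 2.16 ± 0.36 and Trp53inp1 by 1.25 ± 0.33, and Phlda3 was at -0.13 and -4.32. Btg2, which is also an early response gene, was lower, differing by -3.94 ± 0.44, Bbc3, which encodes the death inducer Puma, by -4.38 ± 1.06 and Mdm2, the inhibitor of p53, by -0.87 ± 0.29. Of 35 proliferation genes 8 were higher and 3 lower, with a median of 0.58, and equal-sum scaling left 5 higher and 3 lower. Mki67, a marker of cycling cells, was at 3.85 in transplanted TAµ and 3.44 in adult control µ (0.41 ± 0.75, limma adjusted p = 0.71), and at 8.72 in P10 TAµ. The replication helicase gene Mcm4 was higher by 2.44 ± 0.43 and Ccne1, a cyclin of the entry into S phase, by 4.92 ± 0.95, while the replication clamp gene Pcna was lower, differing by -1.87 ± 0.47.

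Markers of neural cells that a myeloid sort should not hold were higher in transplanted TAµ. Of 15 astrocyte markers 13 were higher and 0 lower, with a median of 4.42, of 16 neuron markers 13 were higher and 0 lower, with a median of 3.74, and of 13 measured oligodendrocyte markers 6 were higher and 0 lower, with a median of 1.99. On a linear scale, the summed level of the astrocyte list was 4102 in transplanted TAµ, 1958 in transplanted µ, 383 in P10 TAµ and 444 in adult control µ. That of the neuron list was 689, 401, 167 and 108 in the same order of groups, and that of the oligodendrocyte list 1674, 908, 167 and 187. The astrocyte glutamate transporter gene Slc1a2 was at 11.57 in transplanted TAµ and 8.01 in adult control µ (3.56 ± 0.56), the filament gene Gfap at 5.25 and 0.60, the synaptic gene Snap25 at 7.05 and 3.43 (3.62 ± 0.60), and Mbp, a main protein of myelin, at 10.19 and 6.72 (3.47 ± 0.66). Under the floor were the oligodendrocyte lineage marker Cspg4 in transplanted TAµ and Nefm, Cldn11 and Olig2 in adult control µ, and no astrocyte marker in either group. Slc1a3, another astrocyte transporter gene, was at 6.96 and 6.83 and was not called. Apoe, Clu, Aldoc, Sparcl1, Bcan, Ncan and Scd2 are also made by astrocytes or oligodendrocytes, so the part of such RNA in their rises was not tested. Ms4a7, Itga4, Clec12a, Mrc1, Cybb and the class II genes are in none of the 3 neural lists, but neither are Apoe, Sparcl1, Bcan, Ncan and Scd2. Absence from these short lists therefore says nothing about the source of a rise, which was not tested for any of these genes.

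**Figure D4:**
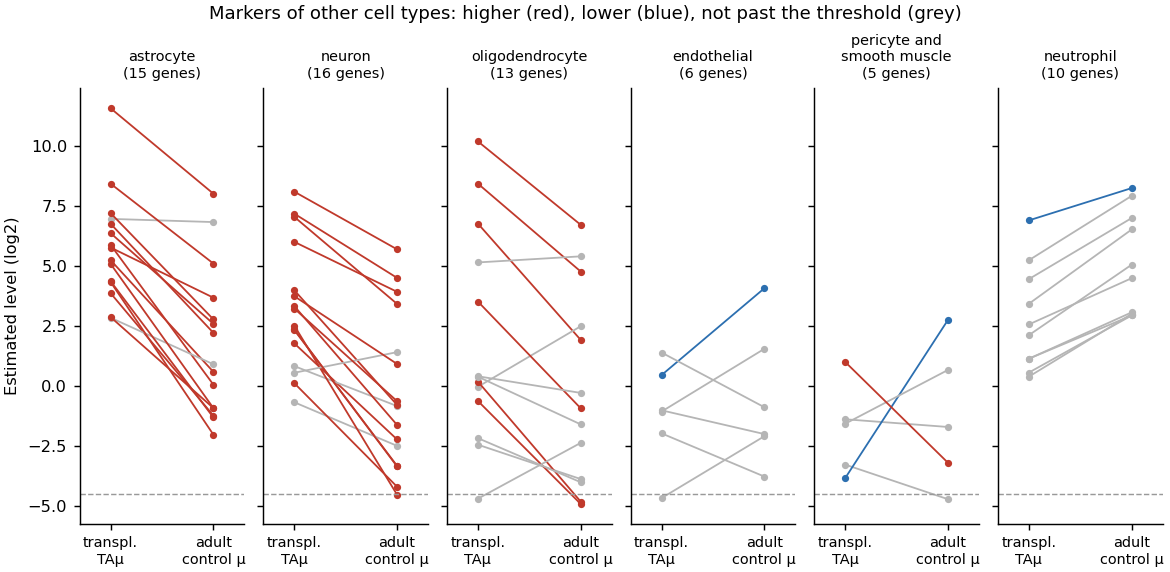
Estimated log2 level of each measured marker of 6 other cell types in transplanted TAµ (left end of each line) and adult control µ (right end); red lines are higher genes, blue lines lower ones, grey lines genes that were not called, and the dashed line is the floor at -4.5. Nearly all astrocyte and neuron lines slope down from transplanted TAµ to adult control µ, while neutrophil lines slope up, 1 of 10 of them called.

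Lists of other blood and vessel cells were short, since few of their genes were in the table. Of 6 measured endothelial markers 0 were higher and 1 was lower, Pecam1, at 0.46 in transplanted TAµ and 4.08 in adult control µ. Of 5 pericyte and smooth muscle markers Anpep was higher and Acta2 lower, the second differing by -6.58 ± 0.97. All 10 measured neutrophil markers had negative fold changes, and only Csf3r, the granulocyte growth factor receptor gene, passed the threshold, by -1.34 ± 0.23. The alpha globin genes Hba-a1 and Hba-a2 were at 1.93 and 1.60 in transplanted TAµ and at -4.28 and -5.07 in adult control µ. Thy1 and Cd4, the 2 measured genes of 14 on the T and NK cell list, were higher, by 6.05 ± 1.04 and 4.90 ± 0.95, and both are also expressed outside lymphocytes, Thy1 by neurons and Cd4 by some macrophages. Of 3 measured B cell genes Ebf1 was higher and Cd79b lower. The progenitor genes Meis1 and Cd34 were lower, differing by -5.50 ± 1.10 and -1.66 ± 0.37, and 0 of the 4 measured genes of that list were higher. Of 6 dendritic cell genes Bst2 was higher and Siglech lower, and both are expressed by other myeloid cells as well.

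Among genes whose average expression was at or above the median, the 10 largest rises were those of Igf1, Vcam1, Ccnd2, Itga4, Apoe, Cp, Csrp1, Kank2, Mrc1 and Cybb. Ccnd2, a cyclin that drives entry into the cell cycle, was at 5.61 in transplanted TAµ and -2.52 in adult control µ (8.13 ± 1.50), and Cp, which encodes the iron oxidase ceruloplasmin, at 8.24 and 1.05 (7.19 ± 1.19). The LIM domain gene Csrp1 was higher by 6.99 ± 1.42 and Kank2 by 6.69 ± 1.26. The 10 largest falls were those of Adamts1, Myo18b, Zfp697, Tmem44, Arvcf, Csmd3, Layn, Egr1, Ahdc1 and Adamts16. The unconventional myosin gene Myo18b was at -2.52 in transplanted TAµ and 5.07 in adult control µ (-7.59 ± 1.58), Arvcf, of the catenin family, at -1.13 and 5.13 (-6.25 ± 0.82), and Csmd3 at 2.57 and 8.25 (-5.68 ± 0.82). Adamts1 and Egr1 are among the genes that were also lower in transplanted µ, at 4.34 and 7.27, whereas Ccnd2 was at 5.55 there, 0.05 ± 0.51 under transplanted TAµ.

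Transplanted TAµ stood above all 3 other groups in 318 genes and below all 3 in 198, counted where the adjusted p was below 0.05 against each group in the same direction. That is 2.31% and 1.44% of the table, and the 3 comparisons share the transplanted TAµ libraries. Against P10 TAµ the background was 10.5% higher and 15.3% lower. Of the 24 marrow-derived macrophage genes 18 were among the 318, as were 8 of 19 border-associated genes and 4 of 10 class II genes, while 8 of the 38 homeostatic microglia genes were among the 198. Among the 143 of the 318 with an average expression at or above the median of the table, those with the widest smallest difference were Itga4, Apoe, Cp, Nnat, Pf4, Msr1, Axl and Cybb. Genes below that median were not ranked, and Ms4a7 and Runx3 among them had smallest differences of 5.03 and 4.82, against 4.93 for Itga4. Nnat, an imprinted gene of developing brain, was at 7.63 in transplanted TAµ, 1.93 in transplanted µ, 3.91 in P10 TAµ and 1.64 in adult control µ. Pf4 was at 7.11, 2.37, 3.56 and 1.41 in the same order, and Cybb at 9.73, 6.58, 3.05 and 3.15. Downward, among 102 of the 198 under the same limit, they were Zfp697, Myo18b, Layn, Arvcf, Sgce, Atp8a2, Rnf128 and Ppm1e, while Meis1, which lies below the limit, had a smallest difference of -4.81 against -4.68 for Sgce. The zinc finger gene Zfp697 was at -2.13 in transplanted TAµ against 4.43 to 4.74 in the other groups, and the hyaluronan receptor gene Layn at -2.14 against 3.45 to 4.59.

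**Figure D5:**
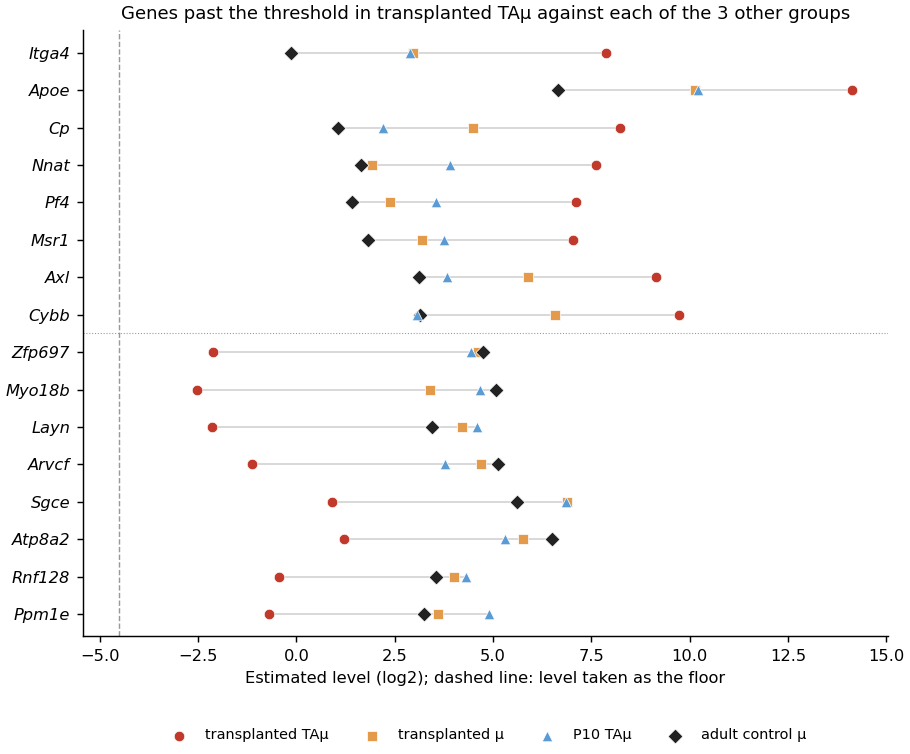
Estimated log2 level, in each of the 4 groups, of 16 genes that stand apart from all 3 other groups in transplanted TAµ, ranked among genes with an average expression at or above the median; red circles are transplanted TAµ, orange squares transplanted µ, blue triangles P10 TAµ and black diamonds adult control µ, and the dashed line is the floor. The red circle lies to the right of the other symbols in the upper 8 genes and to the left of them in the lower 8, at -2.52 for Myo18b.

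In 10 genes transplanted TAµ was lower and transplanted µ higher than adult control µ, and no gene showed the reverse. These comparisons share the adult control libraries, and the direct comparison of the transplanted fractions passed the threshold for all 10. Apart from Slc2a5 they include Sgce, which encodes a sarcoglycan, at 0.91 in transplanted TAµ, 6.89 in transplanted µ and 5.60 in adult control µ. The thiamine transporter gene Slc19a2 was at -2.87, 2.96 and 1.11 in the same order, Fscn1, which bundles actin, at 5.26, 8.13 and 7.29, and Cd34 at 5.04, 7.70 and 6.70. The other 5 were Cd81, D15Ertd621e, Lpcat3, Lrrc3 and Scamp5.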

How the data were processed

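Libraries were made from 100 ng of total RNA (RNeasy Plus Micro extraction, amplification by the Ovation RNA-Seq System V2, Ovation Ultralow adapters) and read for 50 single-end cycles on a HiSeq instrument to a mean of 30 M clusters, per the labels' protocols. The submitters' processing notes name mm10, STAR 2.3.0, HTSeq 0.5.3 and limma. How values were normalized and genes filtered is not given in the sources used here, and totals per library were not analysed here.

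The log2 average expression and log2 fold changes were deposited by the authors, as were p-values with their adjusted p-values from limma, per the file headers. Score columns, a moderated F and calls of 1, 0 and -1, were deposited by the authors as well. The table names 13769 genes, each once. The headers leave the sign of a fold change unstated. Proliferation genes come out higher at P10 when a contrast is taken as its first group minus its second, so this reading was used and each contrast was turned to the direction given.

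Standard errors came from the size of a fold change and the quantile of its p under 18 degrees of freedom, a number found from F in 10806 genes, so the 4 groups share 1 estimate of spread. Below a p of 1e-05, where p is printed too coarsely, it was rebuilt from the adjusted p and its rank. Group levels follow from the average expression and the fold changes over 17 libraries. The recovery was tested on data simulated with these same 18 degrees of freedom and with equal weights, so it checked the arithmetic only. Standard errors of Ms4a7 were 1.19 for transplanted TAµ minus adult control µ and 0.50 for transplanted TAµ minus transplanted µ, each with 3 libraries per group. Those of Sall1 were 0.35 for transplanted TAµ minus adult control µ and 0.23 for transplanted µ minus adult control µ. Equal weights with 1 spread per gene would give such comparisons the same standard error. The fit therefore did not weight all libraries equally, and how it did is not given in the sources used here. Group levels were worked out with equal weights, so they are approximate. Nothing says that the 3 libraries of a group came from separate mice, so p-values measure the spread between libraries, which may be technical.

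The members and the 41 gene lists, with 748 measured genes, were chosen with earlier results of these data known, and lists are described by counts and medians with no test of their own. Named genes are 18 markers, then the 10 genes that rose and the 10 that fell most in the upper range of expression (at or above the median) without predicted genes and clone names, up to 3 members per list and direction by adjusted p with the member of largest fold change, up to 8 genes per direction that differ from all 3 other groups, and up to 5 that stand opposite to transplanted µ. Other list members were named after their values were seen. Some list members are not reported here. Gene positions for 173 of the 177 genes named by rule and promoter windows come from RefSeq, GRCm38.p6. Alternatives were thresholds of adjusted p and fold change, expression filters, centring on the median and, chosen after seeing the data, equal summed level outside the mitochondrial genome. The software was pandas 2.3.3, numpy 2.4.6 and scipy 1.17.1, with figures drawn in matplotlib 3.10.9.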

Additional observations from a re-analysis of the deposited data

Results flagged for a closer look

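In 5 genes named by rule, transplanted TAµ was lower and transplanted µ higher than adult control µ, each past an adjusted p of 0.05, and the difference between the transplanted fractions was itself past that threshold in limma. Transplanted TAµ minus transplanted µ was -5.98 for the sarcoglycan gene Sgce (limma adjusted p = 0.00398) and -5.83 for the thiamine transporter gene Slc19a2 (limma adjusted p = 0.000997). It was -3.69 for the fructose transporter gene Slc2a5, -2.87 for the actin-bundling gene Fscn1 and -2.65 for Cd34 (limma adjusted p = 7.58e-05, 7.33e-05 and 0.000338). Transplanted TAµ and transplanted µ came from mice of the same treatment, and their sample titles share the letters a, b and c. What a letter marks, and whether the authors' fit used it, is not given in the sources used here, and the values above are those of the deposited comparison. No group could be screened for a library far from the others, because the table holds no values per library.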

How the results depend on the processing

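As deposited, 2296 genes were higher and 1849 lower in transplanted TAµ, and of these genes 664 also passed the threshold in the same direction against transplanted µ and 1890 against P10 TAµ, in comparisons that share the transplanted TAµ libraries. In the same order, these counts were 1265, 989, 230 and 881 at an adjusted p below 0.01, 149, 112, 36 and 88 with Bonferroni adjustment, and 1221, 885, 351 and 831 among genes in the upper range of expression, at or above the median, each of which tests fewer genes or sets a stricter threshold. They stayed within 1.5 times of the deposited counts with a minimum absolute log2 fold change of 1, a filter at the first quartile of expression, 1 entry per symbol, centring on the median fold change (a shift of 0.0905) and equal summed level outside the mitochondrial genome (a shift of 0.2259, chosen after seeing the data). Of 177 named genes, 170 were called as deposited, and 0 changed direction under the scalings, the only settings here that alter a fold change. The expression filters kept 154 of the 177 at the first quartile and 126 at the median. Of the 177, 23 named genes missed the threshold at an adjusted p below 0.01, 125 with Bonferroni adjustment, 6 with the minimum fold change and 4 with equal summed level, where 2 others passed it. Medians of the TGF-beta and the integrin lists changed sign under both scalings. The size of a fold change depends on the floor for the 600 genes under it in transplanted TAµ and the 166 in adult control µ. No paired analysis was possible because the sample letters of transplanted TAµ and adult control µ are not shared and the table holds no values per library, and for the same reason fits without each replicate were not run.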
